A study of Mus musculus with 4 samples.

Results

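The genes of oxidative phosphorylation were taken from the arrays by name: every probe, controls aside, whose gene name begins with Nduf followed by a, b, c, s or v, with Uqcr, with Cox followed by 4 to 8 or with Atp5, or is Sdha, Sdhb, Sdhc or Sdhd. This gave 116 of 41174 probes and 83 of 27745 gene names, with 36 genes in complex I, 4 in complex II, 7 in complex III, 17 in complex IV and 15 in complex V. The other 4 genes carry a matching name but are no subunits: Ndufaf1 and Ndufa12l (now Ndufaf2) are assembly factors of complex I, Atp5s is now Dmac2l, and Cox4nb is now Emc8, a member of a complex of the endoplasmic reticulum. The arrays compared C2C12 cells, a mouse myoblast line that forms myotubes in low serum, after 6 days of differentiation with 20 nM GDF8 added every 24 h and with no addition. GDF8 was recombinant mouse myostatin, a ligand of the TGF-beta family that limits muscle growth. Each of 4 two-colour Agilent arrays held 1 GDF8 and 1 untreated RNA, with GDF8 in the Cy5 dye on replicates 2 and 3 and in Cy3 on replicates 1 and 4. The labels call the arrays biological replicates and do not describe separate cultures, so p-values measure the spread between these samples, which may be technical. Both groups are 1 cell line under 1 medium, and the labels give its horse serum as 2% in one field and 10% in another.

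The respiratory chain passes electrons from NADH (complex I) and succinate (complex II) through ubiquinone to complex III, cytochrome c and complex IV, and the proton gradient built on the way drives ATP synthase, complex V. Complex IV, cytochrome c oxidase, has a core encoded by mitochondrial DNA and a set of small nuclear-encoded subunits, some of which exist in tissue forms. In rodents Cox6a2, Cox7a1 and Cox8b are the forms of heart and skeletal muscle, and Cox6a1, Cox7a2 and Cox8a are found in most other tissues.

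Most of these transcripts were too bright for the scanner. A spot is saturated when its signal reaches the top of the scanner's range, here at a mean signal of 65299, and 2 saturated channels give the same ratio whatever the RNA held. On replicates 1 to 4, 67, 86, 84 and 5 of the 116 probes were saturated in the GDF8 channel and 85, 68, 69 and 83 in the untreated channel. Over all probes of the arrays, the share saturated in the GDF8 channel was 5.10%, 11.6%, 10.1% and 0.648%. In the untreated channel it was 10.6%, 3.85%, 4.52% and 8.78%. On every array more probes were saturated in the Cy5 channel than in the Cy3 channel, whichever RNA it held. The GDF8 channel of replicate 4, in Cy3, stood apart as dim with 0.648%, and the values of the muscle isoforms are also given without replicate 4. The brightest probe was saturated in all 4 untreated channels in 58 of the 83 genes, and in 57 of them also in at least 3 GDF8 channels. Spots saturated in both channels came out at medians of 0.23, -0.31, -0.26 and 0.81 on the log2 scale on replicates 1 to 4 after normalisation. The brightest probes of 57 of the 81 genes tested (70.4%) lay within 0.02 of those medians on replicates 1, 2 and 3, against 7.45% of all features tested. Such a value is no measurement of the gene. With saturated spots left out, also from the normalisation curve, 21 genes kept a ratio on at least 3 arrays.

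**Figure D1:**
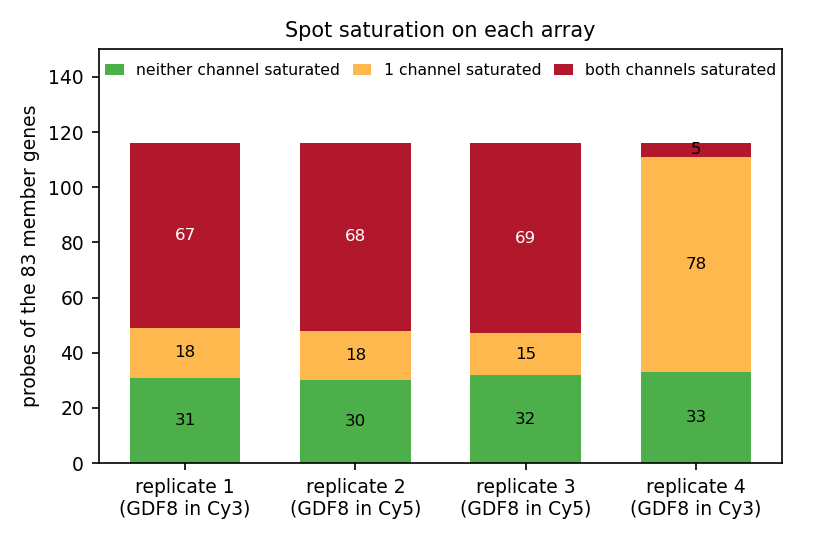
Probes of the 83 genes on each array, stacked by the number of channels saturated (green: neither, yellow: 1, red: both). Both channels were saturated in 67, 68 and 69 probes on replicates 1 to 3 and in 5 on replicate 4, where 78 probes were saturated in 1 channel.

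Ratios below are log2 of GDF8 over untreated, ± is the standard error of limma's fit over 4 arrays (n = 4) unless another n is given, and adjusted p-values are limma's, with Benjamini-Hochberg adjustment over all features of the fit. Each gene was represented by its brightest probe. Of 17437 features, 2.31% were lower and 0.86% higher in GDF8 at an adjusted p under 0.05. Of the 81 genes of oxidative phosphorylation tested, 3 were lower and 0 higher: Cox6a2, Cox7a1 and Cox8b, the 3 muscle isoforms of complex IV. At an unadjusted p under 0.05 the count was 4, with Ndufa11 added. The share of members called, 3 of 81, was near that of all features, but saturation largely set it. The brightest probes of 57 of the 81 lay at the ceiling ratio on replicates 1 to 3 and could hardly be called. All 3 genes called were muscle isoforms. Cox4i2 and Cox8c, forms of other tissues, were not well above background in either whole group and were not tested. In such cultures fewer myotubes and less RNA per myotube cannot be told apart.

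Cox8b was lower with GDF8 on every array. It encodes the muscle form of subunit 8, a small membrane subunit of cytochrome c oxidase, and its probe was saturated in no channel. Before normalisation its mean signals in GDF8 and untreated RNA were 10089 and 39371 on replicate 1, 29154 and 24943 on replicate 2, 21217 and 19914 on replicate 3, and 3245 and 43367 on replicate 4. These signals carry the brightness of each dye, and GDF8 was the brighter channel where it was in Cy5. After normalisation the log2 ratios were -1.13, -0.88, -0.80 and -1.99 on replicates 1 to 4. All 4 lay below 0, and replicate 4 was the lowest. The fit gave -1.20 ± 0.147, or 2.30-fold lower (adjusted p = 0.0141). Without replicate 4 it gave -0.98 (adjusted p = 0.0405). With saturated spots of other probes left out of the normalisation curve the ratio was -1.26 ± 0.154 (adjusted p = 0.0144).

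Cox7a1 encodes the muscle form of subunit 7a, another small membrane subunit of the oxidase. Its mean signals in GDF8 and untreated RNA were 4959 and 13421 on replicate 1, 11111 and 8026 on replicate 2, 7805 and 6094 on replicate 3, and 1956 and 12346 on replicate 4. No channel was saturated, and GDF8 was again brighter where it was in Cy5. After normalisation the log2 ratios were -0.67, -0.81, -0.45 and -1.05. Every array was below 0, with replicate 4 the lowest and replicate 3 the nearest to 0. The fit gave -0.74 ± 0.112, or 1.67-fold lower (adjusted p = 0.0227). It did not pass when replicate 2 was left out (-0.65, adjusted p = 0.122), nor when replicate 4 was (-0.65, adjusted p = 0.0817).

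Cox6a2, the muscle form of the regulatory subunit 6a, passed narrowly, at -0.53 ± 0.102 (adjusted p = 0.0491), and its value holds little measurement. The untreated channel was saturated on all 4 arrays, and the GDF8 channel was saturated on replicates 2 and 3. The GDF8 channel was measured on replicates 1 and 4, at mean signals of 32385 and 12586 against 65261 in the untreated channel of each. The log2 ratios were -0.57 and -0.97 on those arrays, and the -0.31 and -0.26 of replicates 2 and 3 are the values of any spot saturated in both channels. No fold is given, since the true untreated level lay above the ceiling and both measured GDF8 channels were in Cy3. Without replicate 4 the ratio was -0.43 (adjusted p = 0.161). The gene passed in 5 of the 16 other settings that could test it with 1 probe per gene. It also passed when every probe was fitted by itself (limma adjusted p = 0.0485).

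**Figure D2:**
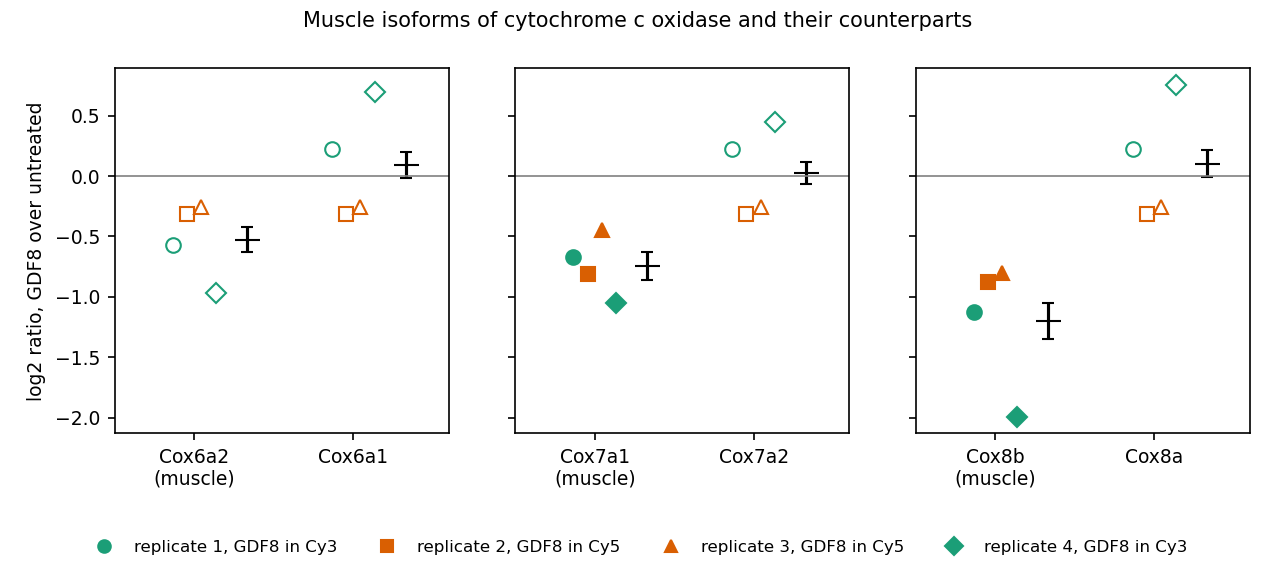
Log2 ratio of GDF8 over untreated for each muscle isoform of complex IV and its counterpart of other tissues, by array (shape) and by the dye of the GDF8 RNA (colour); open symbols had at least 1 saturated channel, and the bar is the fit with its standard error. Cox7a1 and Cox8b lie below 0 on all 4 arrays with no saturation, while every point of Cox6a1, Cox7a2 and Cox8a is open.

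The counterparts of other tissues could not be measured. Cox6a1, Cox7a2 and Cox8a were saturated in all 4 untreated channels and in the GDF8 channels of replicates 1 to 3. Taken at their saturated values, the difference in log2 ratio within an array was -0.62 (SD 0.793) for Cox6a2 minus Cox6a1, -0.77 (SD 0.561) for Cox7a1 minus Cox7a2 and -1.30 (SD 1.03) for Cox8b minus Cox8a, each over n = 4 arrays. Each of the 3 gave p = 0.125 in a two-sided exact sign-flip permutation test, which is the smallest p that 4 arrays allow. The first rests on replicates 1 and 4, since the difference was 0.00 on replicates 2 and 3, where both probes were saturated. Its p of 0.125 still counts replicates 2 and 3 as negative. Without replicate 4 the 3 means were -0.27, -0.53 and -0.82. The p of 0.125 also depended on the normalisation. The same sign-flip permutation test gave 0.375, 0.5 and 0.5 with Agilent's processed signals and with the authors' deposited table. With median centring it gave 0.25, 0.5 and 0.5. All of these differences set a probe against a ceiling, so neither their size nor their p-values measure a difference between the genes.

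A comparison free of saturation was possible with other subunits. Cox7a1 and Cox8b stood below the median of these subunits on every array, though on replicate 3 Ndufb2 (-0.52) and Atp5f1 (-0.46) were below Cox7a1 (-0.45). Against the median of 14 other subunits measured on all 4 arrays, Cox7a1 differed by -0.55, -0.66, -0.45 and -0.74 on replicates 1 to 4, with a mean of -0.60 (SD 0.129). Cox8b differed from the same median by -0.99, -0.99, -0.82 and -1.67, with a mean of -1.12 (SD 0.376). Set against Cox6b1, the general form of a complex IV subunit at the dimer surface, the means were -0.54 (SD 0.143) for Cox7a1 and -1.05 (SD 0.374) for Cox8b. Without replicate 4 the means against the median were -0.55 for Cox7a1 and -0.93 for Cox8b, and against Cox6b1 they were -0.49 and -0.87. All 4 of these comparisons were negative on 4 of 4 arrays, with an exact sign-flip permutation p of 0.125 for each, again the smallest possible, and the same after Benjamini-Hochberg adjustment over all 7 within-array comparisons. These 4 were made with saturated spots left out, a choice made after seeing the data. With those spots kept in the normalisation curve, the sign of Cox6b1 followed the dye. The median of other subunits rests in part on dimmer probes designed to other sequence records than the brightest probes.

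The sequences around the gene start of Cox7a1 and Cox8b are shown because these are the members that fell with a full measurement. Beside them are those of their counterparts Cox7a2 and Cox8a. They run from 250 bases before to 50 bases after the gene start, 5′ to 3′ on the gene's strand, from RefSeq in build GRCm38.p6: Cox7a1 at chr7:30183921-30184220 on the plus strand, Cox8b at chr7:140900397-140900696, Cox7a2 at chr9:79759804-79760103 and Cox8a at chr19:7217567-7217866 on the minus strand. Capitals mark matches to the motifs searched.
Cox7a1: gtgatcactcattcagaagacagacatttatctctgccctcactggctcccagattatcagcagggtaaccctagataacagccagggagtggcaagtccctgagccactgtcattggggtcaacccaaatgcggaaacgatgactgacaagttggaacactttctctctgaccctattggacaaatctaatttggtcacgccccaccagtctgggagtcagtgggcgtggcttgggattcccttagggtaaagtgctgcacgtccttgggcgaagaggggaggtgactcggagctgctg
Cox8b: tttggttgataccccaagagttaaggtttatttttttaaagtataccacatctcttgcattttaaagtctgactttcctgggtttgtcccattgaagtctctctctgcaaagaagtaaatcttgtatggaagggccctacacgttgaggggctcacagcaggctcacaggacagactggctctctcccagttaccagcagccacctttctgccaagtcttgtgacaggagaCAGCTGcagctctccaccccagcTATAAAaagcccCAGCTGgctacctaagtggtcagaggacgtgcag
Cox7a2: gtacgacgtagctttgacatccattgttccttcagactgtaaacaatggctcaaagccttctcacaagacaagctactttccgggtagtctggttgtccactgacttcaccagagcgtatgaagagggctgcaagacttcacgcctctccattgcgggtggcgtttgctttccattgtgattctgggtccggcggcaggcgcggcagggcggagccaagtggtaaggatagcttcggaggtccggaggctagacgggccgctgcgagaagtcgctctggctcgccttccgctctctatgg
Cox8a: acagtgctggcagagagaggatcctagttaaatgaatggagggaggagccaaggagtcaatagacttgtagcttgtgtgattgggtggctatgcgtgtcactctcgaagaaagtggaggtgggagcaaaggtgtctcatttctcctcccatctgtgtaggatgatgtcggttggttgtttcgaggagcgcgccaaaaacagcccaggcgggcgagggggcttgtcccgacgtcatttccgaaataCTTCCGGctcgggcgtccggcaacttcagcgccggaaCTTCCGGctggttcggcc

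Both strands were searched for the letters of motifs known from nuclear genes of mitochondria or from muscle genes. The sequence of Cox8b held 2 matches to the E-box CAGCTG, the site class of the MyoD family of muscle regulators. It held 1 match to TATAAA, a motif added after the sequence was seen. The E-boxes began at bases -19 and 17 from the gene start and the TATAAA at 5, after the start. The sequence of Cox8a held 2 matches to CCGGAAG, the site of the factor GABP, which began at bases -5 and 33. Those of Cox7a1 and Cox7a2 held none of the motifs. Of the 79 subunit genes, 65 had an entry, with 70 such sequences in all. The NRF1 site was in 25.7% of these and in 4.60% of all 32851 sequences of that length. GABP's CCGGAAG was in 22.9% against 8.86%, YY1's AANATGGC in 24.3% against 6.05%, and the core AAGGTCA of oestrogen-related receptors in 11.4% against 4.72%. The longer TCAAGGTCA, which contains that core, was in 2.86% of the members' sequences against 0.423% of all. The E-box was in 8.57% of the members' sequences against 16.3% of all, TATAAA in 10.0% against 13.6%, and the MEF2 site in 0 of 70 against 3.19%. A match is a run of letters and not a bound site.

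Among the remaining subunits free of saturation, no gene passed. There were 15 of them, 12 had a ratio below 0, their median was -0.13, and the median of all 15488 features of that fit was 0.01. Over the 14 measured on all 4 arrays, the median was -0.12, -0.15, -0.01 and -0.30 on replicates 1 to 4. With saturated spots kept in the normalisation curve, the sign followed the dye. There the 19 members with a never saturated probe, muscle isoforms included, had medians of -0.30, 0.13, 0.09 and -0.45. In the fit with those spots left out, 2.67% of all features were lower and 0.988% higher, against 2 and 0 of the 21 members measured, the 2 being Cox7a1 and Cox8b. At an unadjusted p under 0.05 the count among the 15 was 2, Ndufa11 and Atp5f1. Their 95% intervals ran no lower than -0.57 and no higher than 0.42, so none reached the -0.74 of Cox7a1. The interval of Cox7a1 itself ran from -1.02 to -0.47 and overlapped those of 5 of the 15, Atp5f1, Ndufa11, Ndufb2, Ndufb5 and Ndufs8. That of Cox8b ran from -1.63 to -0.89 and overlapped 0 of the 15. By complex, the median was -0.14 over 8 genes of complex I, -0.09 over 2 of complex II, 0.04 for 1 of complex III and -0.24 over 2 of complex V. At the brightest probes, most of them saturated, the medians of complexes I, II, III and V were 0.01, -0.04, 0.01 and 0.06. Of the 21 genes measured in this way, 13 were represented by their brightest probe and 8 by a dimmer one. For Ndufb2, Ndufb8, Ndufc1, Uqcrq, Atp5f1 and Atp5j2 the dimmer probe was designed to another sequence record than the brightest. Whether such probes read the same transcript form was not tested.

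**Figure D3:**
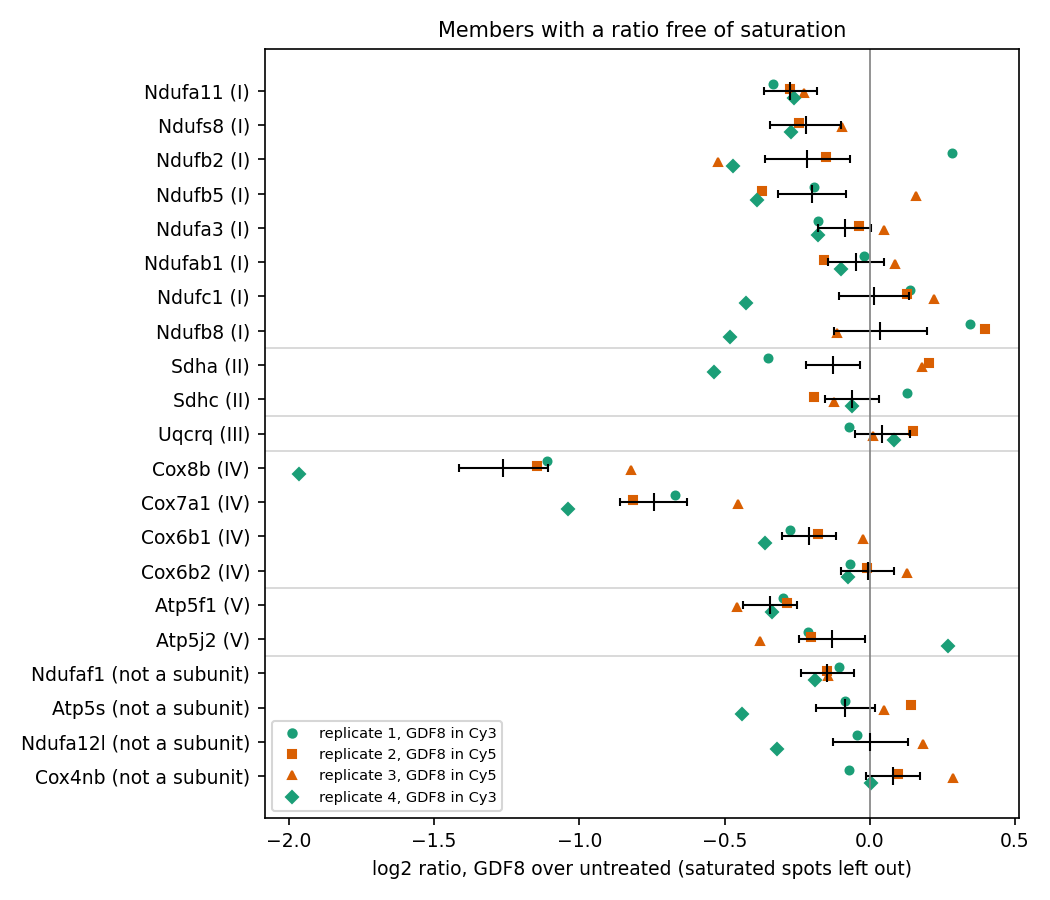
Log2 ratio of GDF8 over untreated for the 21 genes with a ratio free of saturation on at least 3 arrays, grouped by complex; points are arrays (shape), coloured by the dye of the GDF8 RNA, and the bar is the fit with its standard error. Cox8b (-1.26) and Cox7a1 (-0.74) lie to the left of the other 19 genes, which run from -0.34 to 0.08.

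In complex I, which oxidises NADH, Ndufa11 gave even values but did not pass. It encodes a membrane subunit that helps hold the complex together. With saturated spots left out its log2 ratios were -0.33, -0.28, -0.23 and -0.26, and its fit was -0.27 ± 0.0904 (adjusted p = 0.223). All 4 arrays were below 0 and close to each other, and in the fit of every probe by itself its 2 probes gave -0.27 and -0.29. The core iron-sulphur subunit Ndufs8 gave -0.22 ± 0.122 over 3 arrays, replicates 2 to 4. All 3 were negative, though the same arrays gave 0.08, 0.42 and -0.68 with saturated spots kept in the normalisation curve. Ndufb5, an accessory subunit of the membrane arm, gave -0.19, -0.37, 0.16 and -0.39, so that its arrays lay on both sides of 0. Ndufb2, another accessory subunit, spread from -0.52 to 0.28 over the arrays. Ndufa3 (-0.09 ± 0.0904) and the acyl carrier protein Ndufab1 (-0.05 ± 0.0964) were closer to 0. Ndufc1 (0.01 ± 0.119) and Ndufb8 (0.04 ± 0.161) were just above it. The adjusted p of these 8 genes was 0.223 or more. Ndufab1 and Ndufa3 each had a further dimmer probe free of saturation. In the fit of every probe by itself, that of Ndufab1 gave -0.24 (limma adjusted p = 0.432) and that of Ndufa3 gave -0.04. With saturated spots left out, the arrays of this Ndufab1 probe were -0.07, -0.19, -0.21 and -0.51, so its 2 probes differed.

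Succinate dehydrogenase, complex II, is also an enzyme of the citric acid cycle. Its catalytic flavoprotein Sdha gave -0.35, 0.21, 0.18 and -0.54 with a mean of -0.13 ± 0.0932, in which the sign followed the dye. The membrane anchor Sdhc gave 0.13, -0.19, -0.12 and -0.06, with a mean of -0.06 ± 0.0938. Neither differed beyond its spread (adjusted p = 0.692 and 0.891). The iron-sulphur subunit Sdhb and the other anchor Sdhd had no ratio free of saturation; at their saturated values they gave 0.05 and -0.08.

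In complex III, the cytochrome bc1 complex, 1 of 7 genes could be measured. Uqcrq, a small accessory subunit, gave -0.07, 0.15, 0.01 and 0.08 with a mean of 0.04 ± 0.0940 (adjusted p = 0.927), through a dimmer probe. Uqcrb, Uqcrfs1 (the Rieske iron-sulphur protein) and Uqcrh gave -0.15, -0.10 and 0.07 with saturated channels. Uqcrb was saturated in 2 channels of each group and Uqcrfs1 and Uqcrh in 7 of 8, so these values are not read as levels.

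In complex IV, apart from the muscle isoforms, Cox6b1 gave -0.27, -0.18, -0.02 and -0.36, with a mean of -0.21 ± 0.0929 (adjusted p = 0.396). With saturated spots kept in the normalisation curve, it gave -0.58, 0.22, 0.18 and -0.46 instead. There the sign followed the dye, and replicates 1 and 4 were below -0.45. With those spots left out, all 4 arrays were below 0 and above the highest array of Cox7a1, at -0.45. Cox6b2, the form of subunit 6b known from testis, gave -0.07, -0.01, 0.13 and -0.07, with a mean of -0.01 ± 0.0916. Measured this way, the 4 genes of complex IV had a median of -0.48, with the muscle isoforms as the lowest 2, while the brightest probes of all 15 genes tested had a median of 0.03.

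In complex V, the ATP synthase, 2 genes could be measured, both through dimmer probes designed to another sequence record than the brightest probe. Atp5f1 (now Atp5pb), the b subunit of the peripheral stalk, gave -0.30, -0.28, -0.46 and -0.34, with a mean of -0.34 ± 0.0929 (adjusted p = 0.131). These arrays were all below 0. Its other probes gave -0.04 and 0.03, but these were saturated in 4 and 7 of 8 channels. Atp5j2, a small membrane subunit, gave -0.21, -0.20, -0.38 and 0.27, with a mean of -0.13 ± 0.114. The 3 genes of the proton-carrying c ring, Atp5g1, Atp5g2 and Atp5g3, gave -0.08, 0.01 and 0.06 at saturated values.

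**Figure D4:**
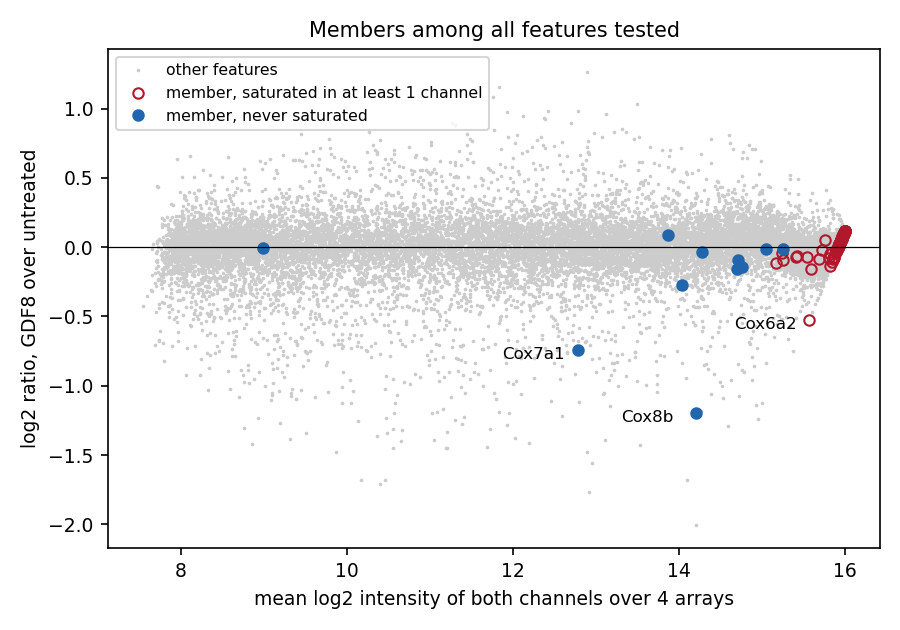
Log2 ratio of GDF8 over untreated against mean log2 intensity for the features tested (grey), with the 81 genes of oxidative phosphorylation in red (open, at least 1 channel saturated) or blue (never saturated), each by its brightest probe. Most red points lie on a narrow arc at the right edge, the place of saturated spots, and Cox7a1 and Cox8b lie lower and further left.

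The members saturated in all 4 untreated channels had ratios from -0.13 (Cox7c) to 0.12 (Ndufb10), Cox6a2 aside, and none of these is read as a level. In complex I they were Ndufa1, Ndufa2, Ndufa4, Ndufa5, Ndufa7, Ndufa8, Ndufa9, Ndufa13, Ndufab1, Ndufb2, Ndufb3, Ndufb4, Ndufb6 to Ndufb11, Ndufc1, Ndufc2, Ndufs1, Ndufs3 to Ndufs7, Ndufv1 and Ndufv2. Ndufa4, counted here by its name, is now regarded as a subunit of complex IV. In complexes II and III they were Sdhd, Uqcr (now Uqcr11), Uqcrc1, Uqcrc2, Uqcrfs1, Uqcrh and Uqcrq. In complex IV they were Cox4i1, Cox5a, Cox5b, Cox6a1, Cox6a2, Cox6c, Cox7a2, Cox7a2l, Cox7b, Cox7c and Cox8a, of which Cox7a2l is a factor that joins complexes into supercomplexes. In complex V they were Atp5a1, Atp5b, Atp5c1, Atp5e, Atp5f1, Atp5g2, Atp5g3, Atp5h, Atp5j, Atp5j2, Atp5l and Atp5o. Of the 58 genes, Ndufa7, Ndufa13, Ndufb9, Ndufb10 and Atp5o, 5 in all, were saturated in all 8 channels. Ndufa10, with 1 saturated channel in each group, gave -0.09, and Atp5d, with 2 in each, gave -0.09.

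The 4 genes that are no subunits were all measured free of saturation, and 0 passed. The complex I assembly factor Ndufaf1 gave -0.11, -0.15, -0.14 and -0.19, with a mean of -0.15 ± 0.0903 (adjusted p = 0.598). These arrays were all below 0 and close together, but they gave -0.36, 0.27, 0.05 and -0.33 with saturated spots kept in the normalisation curve. Atp5s gave -0.08 ± 0.103, Ndufa12l 0.00 ± 0.129 over 3 arrays and Cox4nb 0.08 ± 0.0939, each with arrays on both sides of 0. Atp5s and Cox4nb each had a dimmer probe, also free of saturation. In the fit of every probe by itself these gave -0.34 (limma adjusted p = 0.346) and 0.10 (limma adjusted p = 0.882).

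Of the other genes of the pathway none passed the threshold, and few of the electron carriers and mitochondrially encoded subunits could be measured. The electron carriers cytochrome c (Cycs) and cytochrome c1 (Cyc1) were not past the threshold. The brightest probes of both were saturated in 3 GDF8 channels. Cyc1 is also a subunit of complex III, outside the name rule. Of the 13 subunits encoded by mitochondrial DNA, 3 had a probe, ND4L, CYTB and COX2, and all 3 were saturated. Of 41 assembly and regulatory genes, among them Usmg5 (now Atp5md, a subunit of complex V), 39 were tested, 0 were lower and 0 higher. With saturated spots left out 31 of them had a ratio, 24 were negative, and their median was -0.07. The lowest were Chchd10, a protein of the mitochondrial intermembrane space, at -0.44 ± 0.114, Uqcc1, an assembly factor of complex III, at -0.40 ± 0.103, and Cox11, which delivers copper to complex IV, at -0.28 ± 0.107. None of these 3 passed (adjusted p = 0.115, 0.115 and 0.310). The highest was Cox18, an insertase for a complex IV core subunit, at 0.13 ± 0.0906.

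The cells carried the markers of differentiated muscle in both groups. Of 10 myotube markers, all 10 were tested and 8 were saturated in at least 1 channel, among them Acta1, Des, Myh3, Myog and Mylpf. The 2 free of saturation were both lower with GDF8: Ckm, muscle creatine kinase, at -0.93 ± 0.178 (adjusted p = 0.0486), and the transcription factor Mef2c at -0.95 ± 0.114 (adjusted p = 0.0141). The myoblast markers Pax7 and Myf5 gave 0.19 and 0.03 and did not pass. Of 4 adipocyte markers 2 were above background and 0 passed, with Adipoq and Plin1 not tested. All 4 bone or cartilage markers were tested and 0 passed, with Bglap at -0.47 and an adjusted p of 0.0694. The 3 endothelial or blood markers were not well above background. The part of these markers in the values of Cox7a1 and Cox8b was not tested.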

How the data were processed

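Total RNA was amplified, labelled and hybridised to 4 two-colour arrays on 1 slide, per the labels' protocols. The deposited scanner files give spot intensity (mean signal, median local background) per channel and the log10 of red (Cy5) over green (Cy3), per the file headers, from Agilent Feature Extraction 9.1.1.1. Other deposited columns flag saturation, outliers and signal well above background. Per the series' design text, the authors used GeneSpring GX 12, a filter on flags, an unpaired test (p under 0.05) and a fold past 1.6. Log2 values in the authors' deposited table equalled the ratio of processed signals, turned to GDF8 over untreated, within 0.001 in 100% of 40929 probes with 1 spot; without centring, the column medians were 0.14, -0.09, -0.11 and 0.09.

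Mean signals were corrected by normexp (offset 50), and then loess was run within each array with a weight of 0 for controls (limma 3.58.1, R 4.3.3). Outlier spots were left out and spots of a probe averaged. A probe entered if well above background on all 4 arrays of a group and if it had a value on all 4. The brightest probe stood for a gene, which gave 17437 features. Gene names were updated through RefSeq (GRCm38.p6): 24375 probes by accession, 6301 by symbol and 2426 by synonym, with 8072 left as in the files. Ratios were fitted with a GDF8 term and a dye term, and the array is the block. The fit was tested on simulated ratios, which held no signal ceiling, so that test does not cover saturated spots. Depth does not apply to arrays; their number, 4, limits precision.

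The members, the gene lists and the tests were chosen with earlier results of these data known. Named genes are the isoforms of complex IV, the c ring and complex II in any case, members past the threshold, in each complex the 4 smallest p and the lowest and highest ratio, and members saturated in a whole group; genes free of saturation were named after their values were seen. Alternatives covered the offset, processed signals, Aquantile and median centring, the dye term, the dim-probe filter, single channels, never saturated probes, every probe by itself, the methods' t-test, a fold of 1.6, the deposited table and each array left out. After seeing the data, 2 more were added that leave saturated spots out.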

Additional observations from a re-analysis of the deposited data

Results flagged for a closer look

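Ndufc1, an accessory subunit of complex I, had 1 array far from the others when saturated spots were left out: -0.43 on replicate 4 against 0.14, 0.13 and 0.22 on replicates 1 to 3. It was 1 of 77 sets of 4 values examined, and chance alone puts about 1 in 20 past that limit.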

How the results depend on the processing

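The count of 3 genes lower with GDF8 became 0 by the methods' t-test after Benjamini-Hochberg (88 features lower and 24 higher in all), and ran from 1 to 3 with an array left out. By the methods' own threshold (unadjusted p under 0.05 and a fold over 1.6) it was 2. The count of genes higher was 0 in every setting run. Cox8b kept its call in 18 of 19 settings, Cox7a1 in 16 of 19 and Cox6a2 in 5 of 16. These tallies leave out the fit of every probe by itself, in which all 3 kept it. Both Cox7a1 and Cox8b lost it by the adjusted methods' t-test (adjusted p = 0.0988 and 0.138). The median of complex IV, 0.03, became -0.45 with probes never saturated, -0.45 with saturated spots missing and -0.48 with these also left out of loess, since 4 genes then remained. With no replicate block, on single channels, 2 genes were lower, Cox7a1 (adjusted p = 0.0351) and Cox8b (adjusted p = 0.0197), while Cox6a2 had an adjusted p of 0.668. Over all features the calls lower and higher, 402 and 150, fell to 107 and 12 without replicate 2, to 76 and 8 without replicate 4, to 265 and 58 with no replicate block and to 274 and 66 with no dye term. Saturation leaves 21 of 81 members with a ratio, and these rest on 4 arrays of 1 slide.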
